A study of Mus musculus with 5 samples.

Results

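RNA Polymerase II was examined at 8 cytokine genes of T cells that lie outside the *Il4*, *Il5* and *Il13* cluster: *Il10*, *Il24*, *Il3*, *Csf2*, *Il2*, *Il21*, *Ifng* and *Lif*. They were chosen by name from a table of 11608 genes, of which 8551 had an enriched interval in at least 1 of 4 libraries, and a line was accepted only where its coordinates fitted the mm9 locus of the gene. All 8 genes had such a line. The chromatin came from Th2 cultures of *Parp14*+/+ and *Parp14*-/- mice (C57BL6), 6 to 8 weeks old, each cultured without or with PJ34, a compound that blocks PARP enzymes, and was precipitated with an antibody against RNA Polymerase II phosphorylated at serine 2. The 4 conditions had 1 library each, and the Input mixed chromatin of both genotypes. In every condition naive CD4+CD62L+ spleen cells were stimulated through CD3 and CD28 with 10 ng/ml IL-4 and an antibody to IFN-γ for 3 days, and were then expanded for 4 days with 50 U/ml IL-2 and IL-4. The labels give 10 µM PJ34, applied after differentiation, whereas the methods of the study describe culture in a lower dose. The number of mice behind a library is not given in the sources used here.

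T cells release cytokines to instruct other cells, and a Th2 culture is defined by IL-4, IL-5 and IL-13. The genes described here belong to other programmes that activated T cells can run: IL-10 and IL-24 of the IL-10 family, IL-3 and GM-CSF (the product of *Csf2*) that act on myeloid cells, IL-2 and IL-21 that signal through the common gamma chain, IFN-γ of Th1 cells, and LIF of the IL-6 family. PARP-14 is an ADP-ribosyltransferase that acts with STAT6, the transcription factor activated by IL-4. RNA Polymerase II phosphorylated at serine 2 is the elongating form, which builds up along a transcribed gene and past its 3′ end before transcription ends.

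The value of a gene is its peak height, the largest number of sequenced fragments that overlap at 1 point of the region the authors assigned to it. Each of the 8 genes had 1 such region, so its height is a whole number. The height is not divided by gene length. Where 4 values follow one another below, they are for *Parp14*+/+ without and with PJ34, then for *Parp14*-/- without and with PJ34. The authors had brought the libraries to the same number of alignments, and the median height of all genes with an interval was 9.25, 10.0, 9.00 and 8.50. The libraries held between 8841 and 12014 intervals called by SICER. A ratio of heights is given with 95% limits, the exact binomial (Clopper-Pearson) limits of both heights taken as counts, which cover counting error only. Where a gene of the table has several regions its height is their average, and the limits are those of the heights summed over its regions. With 1 library per condition differences have no replicate check, and neither tests nor p-values are given. A lower height can come from fewer cells with RNA Polymerase II on the gene or from less of it per cell, and these cannot be told apart.

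Promoters are shown for the genes on which the comparisons turn, since the SICER intervals of *Il3*, *Csf2* and *Il21* reached across the gene start in every library and that of *Il2* in *Parp14*+/+ alone. The sequences are from RefSeq (GRCm38.p6), 250 bases that end at the base before the gene start, 5′ to 3′ on the strand of the gene. Of the 8 genes, 6 had an entry, and *Il10* and *Il24* had none. In the first pair the capitals mark AGATAA, a motif of the GATA type, to which GATA3, the master factor of Th2 cells, belongs.
Il3, chr11:54267280-54267529, minus strand: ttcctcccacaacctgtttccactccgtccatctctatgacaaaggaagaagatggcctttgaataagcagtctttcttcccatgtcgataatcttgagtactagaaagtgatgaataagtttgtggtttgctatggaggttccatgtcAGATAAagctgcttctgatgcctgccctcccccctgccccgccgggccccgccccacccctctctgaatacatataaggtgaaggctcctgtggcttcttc
Csf2, chr11:54249900-54250149, minus strand: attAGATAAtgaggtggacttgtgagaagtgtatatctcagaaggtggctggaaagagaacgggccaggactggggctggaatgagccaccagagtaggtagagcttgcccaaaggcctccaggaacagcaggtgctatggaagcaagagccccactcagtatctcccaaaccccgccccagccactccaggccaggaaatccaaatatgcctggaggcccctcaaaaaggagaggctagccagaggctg

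In the second pair the capitals mark GGAAAA or its complement TTTTCC, the core letters of NFAT sites, and in *Il2* also TATAAA, the letters of a TATA box. NFAT factors act below the T cell receptor.
Il2, chr3:37125955-37126204, minus strand: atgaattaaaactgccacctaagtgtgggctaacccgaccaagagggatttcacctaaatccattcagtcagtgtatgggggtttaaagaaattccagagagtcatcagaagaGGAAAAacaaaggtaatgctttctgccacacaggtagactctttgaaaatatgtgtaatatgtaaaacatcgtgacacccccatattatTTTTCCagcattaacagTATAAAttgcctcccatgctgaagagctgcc
Il21, chr3:37232637-37232886, minus strand: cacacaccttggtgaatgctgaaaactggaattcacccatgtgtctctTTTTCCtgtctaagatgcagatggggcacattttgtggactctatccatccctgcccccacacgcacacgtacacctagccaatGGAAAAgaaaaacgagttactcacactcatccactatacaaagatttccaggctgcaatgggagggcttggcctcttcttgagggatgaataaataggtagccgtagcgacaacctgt

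The letters AGATAA, searched on both strands as all motifs here, began 101 bases before the start of *Il3* and 247 bases before that of *Csf2*. They were present in 2 of the 6 promoters and in 9.99% of 32851 RefSeq promoters of the same length. GGAAAA was present in 2 of 6, *Il2* and *Il21*, with 2 matches each, and in 20.4% of all promoters. TATAAA was found in *Il2*, 31 bases before the start, and in *Ifng*, 30 bases before it, and in 12.4% of all promoters. The STAT-type letters TTCNNNGAA were found in *Ifng* alone (7.02% of all promoters), and TGANTCA, an AP-1 type motif, in *Lif* alone (6.75%). The spacing preferred by STAT6, TTC and GAA with 4 bases between them, had no match in the 6 sequences (5.85% of all promoters). A match is a description of the letters and is no sign of binding.

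RNA Polymerase II was above the median gene at all 8 cytokine genes in every library except *Parp14*+/+ + PJ34. The exception there was *Il2*, with a height of 6 against a median of 10.0. The median height of the 8 genes was 43.0 without and 39.0 with PJ34 in *Parp14*+/+ cells, and 27.5 and 33.5 in *Parp14*-/- cells. The genes fell into an upper and a lower set in each library: *Il10*, *Il24*, *Lif*, *Csf2* and *Il3* were above *Il21*, *Ifng* and *Il2* in all 4. Averaged over the 4 libraries, the order was *Il10* and *Il24* (both 63.0), *Lif* (42.5), *Csf2* (38.8), *Il3* (35.0), *Il21* (19.5), *Ifng* (18.0) and *Il2* (12.5). The lowest height of *Il10* and *Il24*, 50, was above the highest of *Lif*, 49, whereas the ranges of *Lif*, *Csf2* and *Il3* overlapped, as did those of *Il21*, *Ifng* and *Il2*.

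**Figure D1:**
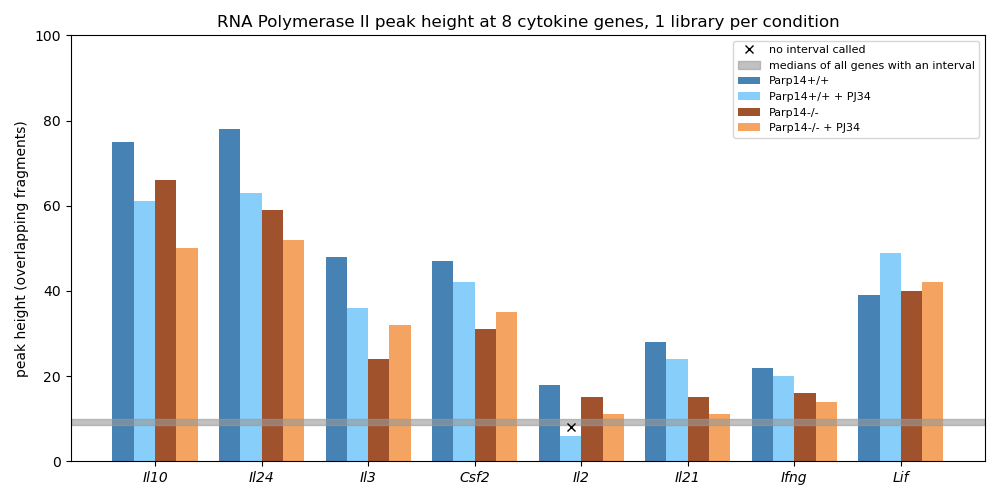
Peak height (overlapping fragments) of the 8 cytokine genes, 1 bar per library, with the range of the 4 medians of all genes with an interval as a grey band and a cross where no SICER interval was called. The bars run from 6 at *Il2* in *Parp14*+/+ + PJ34 to 78 at *Il24* in *Parp14*+/+, and *Parp14*+/+ is the highest bar of every gene except *Lif*.

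Both genes of the IL-10 family stood highest. *Il10* (gene identifier 16153) encodes a cytokine that restrains inflammation, and lies on the plus strand of chromosome 1 from 132916424 to 132921547 (mm9). In *Parp14*+/+ cells its height was 75 without and 61 with PJ34, and in *Parp14*-/- cells 66 without and 50 with it. Of all genes with an interval, 99.4% were lower than *Il10* in *Parp14*+/+. The library without PJ34 was above its PJ34-treated partner in both genotypes, and *Parp14*+/+ was above *Parp14*-/- in both treatments.

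The value of *Il10* is not that of *Il10* alone. In *Parp14*+/+ 1 SICER interval of 113250 bp began 33673 bp before the gene and ended 74453 bp beyond it, over *Mapkapk2*, a kinase gene on the opposite strand whose near end is 28734 bp away. *Mapkapk2* had the same 4 heights, since both genes were assigned the same region. The highest point lay between both genes, in no annotated gene. Without and with PJ34 it was 11014 and 10774 bp past the 3′ end of *Il10* in *Parp14*+/+ cells, but 1014 and 438 bp past it in *Parp14*-/- cells, so the *Il10* ratios between genotypes compare heights at places about 10 kb apart. The interval was 110400 bp long in *Parp14*+/+ + PJ34, and 76350 and 79050 bp in the *Parp14*-/- libraries. Both *Parp14*-/- intervals ended 40703 bp past the 3′ end, short of the end of both *Parp14*+/+ intervals.

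*Il24* (93672), a member of the IL-20 branch of the family, lies 133851 bp away on the minus strand from 132778651 to 132782573. Its height was 78 without and 63 with PJ34 in *Parp14*+/+ cells, and 59 without and 52 with it in *Parp14*-/- cells. *Parp14*+/+ was the highest and *Parp14*-/- + PJ34 the lowest, as at *Il10*, but here *Parp14*+/+ + PJ34 was above *Parp14*-/-. The highest point lay between 506 and 1050 bp past the 3′ end in the 4 libraries, inside the gap of 1284 bp to *Faim3*. *Faim3*, an Fc receptor gene, is transcribed towards *Il24*, and its value averages this region with a second one (40.5, 33.0, 32.0 and 29.5). How much of the height in the gap belongs to each gene was not tested. *Il20*, the next gene of the cluster, which encodes another IL-20 branch cytokine, had heights of 10, 9, 13 and 10.

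*Il3* and *Csf2*, neighbours on the minus strand of chromosome 11, encode growth factors of myeloid cells, and IL-3 acts on mast cells and basophils in particular. *Il3* (16187) spans 54078587 to 54080781 and *Csf2* (12981) spans 54060772 to 54063401, 15186 bp downstream. *Csf2* is 522167 bp from *Il5*, the nearest gene of the Th2 cluster. *Il3* reached a height of 48 without and 36 with PJ34 in *Parp14*+/+ cells, against 24 without and 32 with it in *Parp14*-/- cells. At *Csf2* the heights were 47 and 42 in *Parp14*+/+ cells and 31 and 35 in *Parp14*-/- cells. At both genes *Parp14*-/- was the lowest library, and *Parp14*-/- + PJ34 lay between it and *Parp14*+/+ + PJ34.

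Each of the pair had its own interval in every library. The intervals of *Il3* were 4500, 5550, 5250 and 6150 bp long, and those of *Csf2* 7350, 10200, 12150 and 10200 bp. Length and height did not go together: the *Csf2* interval was longest where its peak was lowest, in *Parp14*-/-, and the *Il3* interval was shortest where its peak was highest, in *Parp14*+/+. All intervals covered the whole gene, its start included. The peak stood 346 to 666 bp past the 3′ end of *Il3* and 355 to 643 bp past that of *Csf2*, in no other gene.

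The 121 bases around the highest point of *Il3* in *Parp14*+/+ are shown because *Il3* had the largest ratio between the untreated genotypes. They are from NCBIM37, the assembly of mm9, 5′ to 3′ on the strand of the gene, with the single match of the searched motifs, TTTTCC, in capitals. The highest point of *Parp14*-/- lay outside them, 666 bp past the 3′ end against 442 bp in *Parp14*+/+, so the ratio compares heights at different places.
Il3 highest point, chr11:54078085-54078205, minus strand: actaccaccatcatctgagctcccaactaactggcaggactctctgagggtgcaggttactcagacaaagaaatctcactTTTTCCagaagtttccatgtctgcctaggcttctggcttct

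*Il2* and *Il21* lie 96806 bp apart on the minus strand of chromosome 3. IL-2 is the growth factor of activated T cells, which was also added to these cultures as protein, and IL-21 helps B cells to make antibody. *Il2* (16183) spans 37019644 to 37024875. Its height was 18 in *Parp14*+/+ and 6 after PJ34, and 15 in *Parp14*-/- and 11 after PJ34, the lowest of the 8 genes on average. In *Parp14*+/+ + PJ34 no SICER interval was called over *Il2* or within 2 kb of it, and only 10.3% of genes had a lower height, against 82.1% in *Parp14*+/+. The interval covered 100% of the gene in *Parp14*+/+, 81.4% in *Parp14*-/- and 41.2% when these cells had PJ34, and it reached the gene start in *Parp14*+/+ alone. The highest point lay 395, 763 and 779 bp past the 3′ end in these 3 libraries, in an intron of *Adad1*. *Adad1*, a gene known from the testis, is on the plus strand from 36962449 to 37020846, overlaps the 3′ end of *Il2* and has no line in the table.

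*Il21* (60505) spans 37121681 to 37131540. It had a height of 28 without and 24 with PJ34 in *Parp14*+/+ cells, and of 15 without and 11 with it in *Parp14*-/- cells. Both *Parp14*+/+ libraries were above both *Parp14*-/- libraries. The highest point changed place with the genotype. The highest point was 662 and 2000 bp past the 3′ end in the *Parp14*+/+ libraries without and with PJ34, but inside an exon of *Il21* in the *Parp14*-/- libraries, 2304 and 1904 bp before the end. In *Parp14*-/- + PJ34 the interval stopped 470 bp before the 3′ end, leaving 95.2% of the gene covered, and a separate interval lay within 2 kb. In the other libraries a single interval of 15900 to 17100 bp held the gene and at least 4180 bp beyond it. The 121 bases around the highest point in *Parp14*+/+ (NCBIM37, strand of the gene) are shown since no library of *Parp14*-/- had its highest point past the gene. They hold none of the motifs searched.
Il21 highest point, chr3:37120959-37121079, minus strand: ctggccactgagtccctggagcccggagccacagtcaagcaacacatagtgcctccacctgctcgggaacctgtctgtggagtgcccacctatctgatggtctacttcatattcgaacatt

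*Ifng* (15978) encodes IFN-γ, the signature cytokine of Th1 cells, and lies on the plus strand of chromosome 10 from 117878103 to 117882948. The height was 22 without and 20 with PJ34 in *Parp14*+/+ cells, and 16 and 14 in *Parp14*-/- cells. A Th2 culture made with an antibody to IFN-γ thus held RNA Polymerase II at *Ifng* above that of 87.3% of genes in *Parp14*+/+. The order of the 4 libraries was that of *Il21*, with both *Parp14*+/+ libraries on top. The highest point lay 557 and 573 bp past the 3′ end in the *Parp14*+/+ libraries, 131 bp before the end, in an exon, in *Parp14*-/-, and 13 bp past it in *Parp14*-/- + PJ34. The interval of *Parp14*+/+ began 298 bp inside the gene, whereas those of the other libraries reached across the start.

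*Lif* (16878) encodes a cytokine of the IL-6 family that signals through gp130 and lies on the plus strand of chromosome 11 from 4157571 to 4172517. It was the only one of the 8 genes with its highest value outside *Parp14*+/+. There the height was 39 without and 49 with PJ34, and in *Parp14*-/- cells it was 40 and 42. The interval never reached the start of the gene. It began 4480, 5230, 5830 and 7930 bp inside it and covered 70.0%, 65.0%, 61.0% and 46.9% of its length. Coverage was highest in *Parp14*+/+ and lowest in *Parp14*-/- + PJ34, an order that the heights did not follow. The highest point lay 156 to 476 bp past the 3′ end. *Osm*, the neighbouring gene of the same cytokine family, had heights of 7, 8, 14 and 9.

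**Figure D2:**
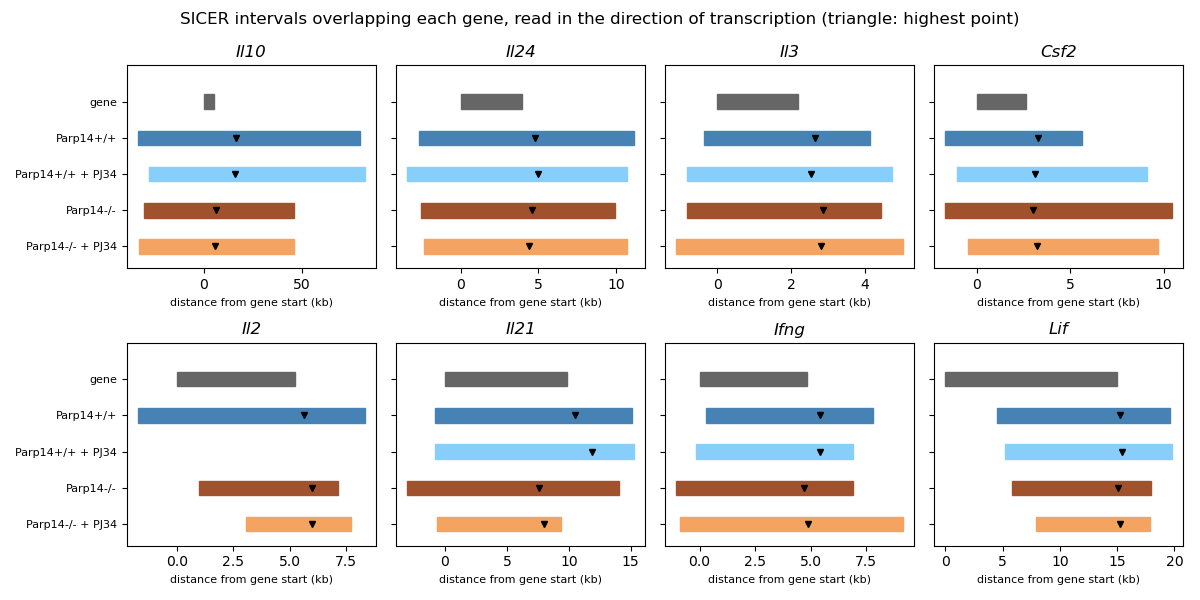
SICER intervals that overlap each gene, 1 bar per library, with distance from the gene start in kb on the horizontal axis (read in the direction of transcription), the gene as a grey bar and the highest point as a triangle. Most triangles sit past the grey bar, those of *Il21* lie inside the gene in both *Parp14*-/- libraries, *Il2* has no bar in *Parp14*+/+ + PJ34, and the bars of *Lif* begin inside the gene.

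At most of these genes the highest point lay past the 3′ end. It did so at 8 of 8 genes in *Parp14*+/+ and at 7 of 7 with an interval in *Parp14*+/+ + PJ34, where 39.3% and 33.9% of all genes with an overlapping interval had it there. In *Parp14*-/- it lay past the end at 6 of 8 genes (31.2% of all genes) and in *Parp14*-/- + PJ34 at 7 of 8 (31.4%). *Il21* and *Ifng* were the exceptions in *Parp14*-/-, and *Il21* in *Parp14*-/- + PJ34. At no gene did it lie before the start, as it did at 16.6% to 20.4% of all genes. The cytokine genes span 2194 to 14946 bp, and the part of gene length in this pattern was not tested.

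**Figure D3:**
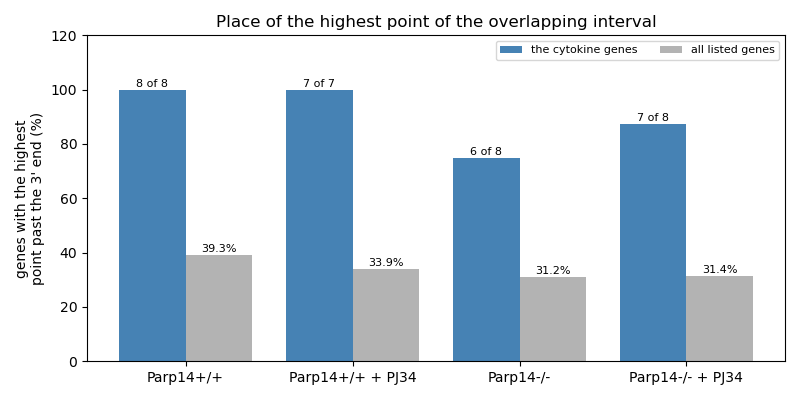
Percent of genes whose highest point lies past the 3′ end, for the cytokine genes with an overlapping interval (blue bars, counts above them) and for all listed genes with one (grey bars), in each library. The blue bars stand at 8 of 8, 7 of 7, 6 of 8 and 7 of 8, and the grey bars between 31.2% and 39.3%.

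Over their summed length the genes were covered by intervals to 90.2%, 78.5%, 86.0% and 76.5%. Per gene, the median coverage of all genes with an overlapping interval was 42.2%, 33.2%, 31.5% and 30.2%. A share of summed length, with *Il2* at 0 in *Parp14*+/+ + PJ34, and a median over genes are unlike measures. The part of gene length in this difference was not tested. The genes with less coverage after PJ34 were *Il2* and *Lif* in both genotypes and *Il21* in *Parp14*-/- cells. The gene start lay in an interval at 6 genes in each library, though not at the same 6, against 52.0% to 58.9% of all genes.

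The first comparison asked how RNA Polymerase II differed with PARP-14. *Il3* had the largest ratio, with 2.00 times the height in *Parp14*+/+ that it had in *Parp14*-/- (95% limits 1.20 to 3.41). *Il21* had a ratio of 1.87 (0.964 to 3.76) and *Csf2* 1.52 (0.943 to 2.47). These 3 genes passed 1.4, the upper limit that the study used between the genotypes, as did 12.8% of all genes, and none of the 8 was below 0.7, the lower limit, as 11.0% of all genes were. The study applied these limits to average peak values on another scale, so passing them here is not a call by the study. The limits of *Il3* alone lay above 1, which was so for 1.02% of all genes.

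The other genes lay nearer to 1. *Ifng* had a ratio of 1.38 (0.690 to 2.80), just inside the limit of 1.4, *Il24* 1.32 (0.931 to 1.89), *Il2* 1.20 (0.571 to 2.56) and *Il10* 1.14 (0.805 to 1.61). *Lif* was at 0.975 (0.611 to 1.55). In all, 7 of 8 genes were above 1, and so were 49.0% of all genes. The median ratio was 1.35, against 1.00 over all genes, and the summed heights were 355 and 266, a ratio of 1.33 (1.14 to 1.57). *Il3* exceeded 97.8% of all genes in this ratio, *Il21* 97.4% and *Csf2* 91.6%. By their limits, the ratios of all of the 8 genes except *Il3* could not be told from 1, *Il21* and *Csf2* included.

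In the PJ34-treated cultures *Il21* had the largest ratio between the genotypes, 2.18 (1.03 to 4.93) from heights of 24 and 11. It was the only 1 of 8 with limits above 1, which 2.71% of all genes had. *Ifng* followed with 1.43 (0.686 to 3.06). These 2 of 8 genes passed 1.4, as did 22.6% of all genes. *Il2* was on the other side with 0.545 (0.166 to 1.61), the only 1 of 8 below 0.7, where 5.85% of all genes lay. *Il10* (1.22), *Il24* (1.21), *Csf2* (1.20), *Lif* (1.17) and *Il3* (1.12) were between the limits. Again 7 of 8 genes were above 1, as were 63.9% of all genes.

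In this pair the median of all genes was itself above 1, at 1.14, a shift of 0.19 on the log2 scale. Relative to it *Il21* was at 1.91 and *Il2* at 0.477, while *Ifng*, at 1.25, no longer passed 1.4 and *Il3*, at 0.984, was on the other side of 1. The median of the 8 genes was 1.21 and the ratio of their sums 1.22 (1.03 to 1.45), which is not scaled to the median gene. With the libraries scaled to a median ratio of 1, the ratio of sums was 1.06. The limits of the unscaled sum held 1.14, as did those of *Il21* (1.03 to 4.93), so neither could be told from the median gene. *Il3* passed the limit of 1.4 in the untreated pair and was level with the median gene in the treated pair, while *Il21* passed it in both. The difference between both pairs was not tested for any gene.

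**Figure D4:**
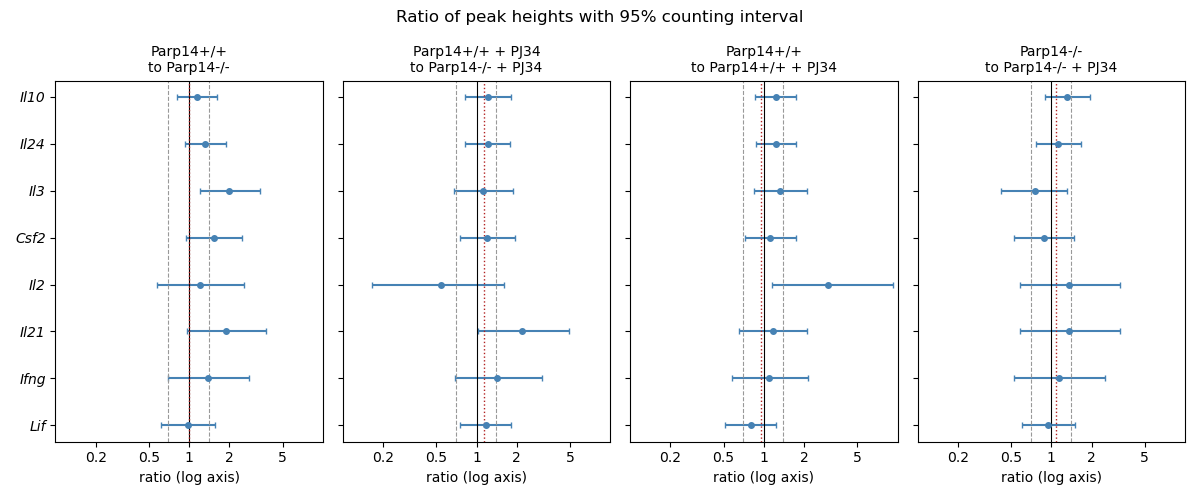
Ratio of peak heights (log axis) of the 8 genes in the 4 comparisons, as points with 95% limits for counting error. Grey broken lines mark 0.7 and 1.4, the black line 1 and the red dotted line the median ratio of all genes. Limits that do not hold 1 are seen at *Il3* in the first panel (2.00), at *Il21* in the second (2.18) and at *Il2* in the third (3.00), and at no gene in the fourth.

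The other comparisons asked how RNA Polymerase II differed with PJ34 within a genotype. In *Parp14*+/+ cells *Il2* was 3.00 times as high without PJ34 as with it (1.14 to 9.23), from heights of 18 and 6. It was the only 1 of 8 genes to pass 1.4, which 7.25% of all genes did, and the only one with limits above 1 (0.690% of all genes). *Il3* had a ratio of 1.33 (0.848 to 2.11), *Il24* 1.24, *Il10* 1.23, *Il21* 1.17, *Csf2* 1.12 and *Ifng* 1.10. *Lif* was the exception at 0.796 (0.509 to 1.24), so that 7 of 8 genes were above 1, against 38.4% of all genes. None was below 0.7 (11.0% of all genes). The study took ratios of 0.83 to 1.2, of peak values on another scale, as no difference with PJ34. By that range *Il2*, *Il3*, *Il24* and *Il10* were 4 of 8 genes above 1.2, against 18.0% of all genes, and *Lif* was the 1 below 0.83, against 27.6%. The median was 1.20, against 0.959 for all genes, and the ratio of sums 1.18 (1.01 to 1.38).

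In *Parp14*-/- cells none of the 8 genes passed 1.4 without PJ34 over with PJ34 (15.1% of all genes), none was below 0.7 (6.35%) and none had limits above 1 (1.37%). *Il2* and *Il21*, with the same heights of 15 and 11, had a ratio of 1.36 (0.585 to 3.28). *Il10* had 1.32 (0.900 to 1.95), *Ifng* 1.14 and *Il24* 1.13, which made 5 of 8 genes above 1, as were 57.5% of all genes. *Lif* (0.952), *Csf2* (0.886) and *Il3* (0.750, limits 0.423 to 1.31) were below 1. By the range of 0.83 to 1.2, *Il2*, *Il21* and *Il10* were 3 of 8 above it (33.3% of all genes) and *Il3* was 1 below it (15.5%). The median was 1.14, against 1.08 for all genes (0.12 on the log2 scale), and the ratio of sums was 1.08 (0.902 to 1.29). Relative to the median gene *Il3* was at 0.692, past the limit of 0.7, and the ratio of sums was level with that gene. With the libraries scaled to a median ratio of 1, which is a different scaling, the ratio of sums was 0.979. Each library enters 2 of the 4 comparisons.

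The Th2 cytokines give a scale for these ratios. *Il4*, averaged over 2 regions with its limits taken from the sum of both, had heights of 61, 39, 29 and 18, *Il13* had 38, 33, 17 and 10, and *Il5* had 21, 21, 4 and 6. The *Parp14*+/+ to *Parp14*-/- ratio was 2.10 (1.53 to 2.93) for *Il4*, 2.24 (1.23 to 4.22) for *Il13* and 5.25 (1.77 to 21.0) for *Il5*. With PJ34 in both genotypes it was 2.17 (1.44 to 3.31), 3.30 (1.59 to 7.51) and 3.50 (1.37 to 10.6). The untreated ratio of *Il3* lay just under that of *Il4*, whereas with PJ34 *Il21* alone of the 8 genes had a ratio as high as that of *Il4*. *Il10* and *Il24* had values above the average of the 2 *Il4* regions in every library, and ratios nearer to 1. The taller *Il4* region can be higher than that average, so the peaks themselves are not ranked.

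A list of 50 other cytokine and chemokine genes, the Th2 cytokines included, had 31 lines in the table and 28 genes with an interval. In *Parp14*+/+ over *Parp14*-/- 11 of the 28 were above 1 (49.0% of all genes) and 15 below. Of the 28, 6 passed 1.4 (12.8% of all genes) and 11 were below 0.7 (11.0%), with a median of 0.820, against 1.00 for all genes. In the PJ34-treated pair 14 were above 1 (63.9% of all genes) and 13 below. There 8 passed 1.4 (22.6%) and 7 were below 0.7 (5.85%), with a median of 1.02, against 1.14 for all genes. In these genotype pairs *Il4*, *Il5* and *Il13* were the ones past 1.4 with limits above 1, and none was below 0.7 with limits below 1. Without over with PJ34, *Il4* and *Tnfsf11*, the gene of the osteoclast cytokine RANKL, were the ones past 1.4 with limits above 1 in both genotypes, *Tnfsf11* at 1.44 (1.01 to 2.06) in *Parp14*+/+ and 1.58 (1.07 to 2.35) in *Parp14*-/- cells. *Tnfsf11* was named after its values were seen. *Tnf*, *Lta* and *Ltb*, inflammatory and lymphoid cytokine genes that share 1 region, had heights of 16, 18, 26 and 32 and count as 3 of those below 0.7 in both pairs.

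Of 17 genes for receptors of the 8 cytokines, 12 had a line and 10 an interval. In *Parp14*+/+ over *Parp14*-/- 2 of the 10 were above 1 (49.0% of all genes) and 6 below. Of the 10, 1 passed 1.4 (12.8% of all genes) and 2 were below 0.7 (11.0%), with a median of 0.853, against 1.00 for all genes. *Ifngr1*, the ligand-binding chain of the IFN-γ receptor, had average heights over 3 regions of 4.67, 7.33, 9.33 and 6.67 and a ratio of 0.501, against 1.38 for its ligand gene *Ifng*. The limits were 0.243 to 0.982 from the summed heights of 14 and 28, but those of the averages, rounded to 5 and 9, held 1 (0.146 to 1.85). *Il2ra*, the IL-2 receptor alpha chain, had heights of 112, 138, 145 and 112 and a ratio of 0.772 (0.598 to 0.995). It was named after its values were seen. In the PJ34-treated pair both were above 1, at 1.10 and 1.23, and the receptors had a median of 1.08, against 1.14 for all genes. In *Parp14*-/- cells all 10 receptor genes were higher without PJ34 than with it, as were 57.5% of all genes. Their median was 1.21, against 1.08 for all genes, and their ratio of sums was 1.25 (1.07 to 1.46), which is not scaled to the median gene. In *Parp14*+/+ cells 6 were higher (38.4% of all genes) and 3 lower, with a ratio of sums of 0.954 (0.813 to 1.12).

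Each cytokine gene was also set beside the genes most like it over the 4 libraries, by the Euclidean distance of their log2 heights among up to 7959 genes. *Il10* and *Il24* were near each other (distance 0.186), and *Il24* was nearest to *Cnbp* (78, 67, 59 and 51, distance 0.0931). *Csf2* was nearest to *Ptma* (0.181), *Ifng* to *Ifi35* (0.134), and *Lif* to *Crebzf* and *Tmem126a*, which share their heights (40.0, 47.0, 40.0 and 41.0, distance 0.0785). *Il21* was nearest to *Rad50*, the DNA repair gene beside the Th2 cytokines (27.0, 21.0, 12.5 and 10.5, distance 0.337). *Il3* and *Il2* had no neighbour as near: the closest were *Sfpq* and *Zmym1* for *Il3* (0.372) and *Gsdm1* for *Il2* (0.472). *Il2rg*, the common gamma chain through which IL-2 and IL-21 signal, was among the 3 nearest to *Ifng* (24, 19, 15 and 13, distance 0.203).

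The labelled cell type was checked against markers. Of the 7 T cell genes examined, 7, 6, 5 and 5 had an interval, and their summed height was 77.5, 93.5, 78.5 and 68.5. *Cd3g* had an interval in *Parp14*+/+ alone, and *Cd4* had none in *Parp14*-/-. The 5 Th2 genes, 3 of them the cytokines above, summed to 197, 168, 112 and 90.0, so that their sum was lower in *Parp14*-/- together with *Il3*, *Il21* and *Csf2*. The lower ones were *Il4*, *Il5*, *Il13* and *Gata3*, whereas *Ccr4* had 17, 17, 17 and 13. Of the CD8 T cell genes, 3 of 4 had a line and summed to 60.5, 68.5, 90.5 and 75.0. Most of each sum came from *Gzmb* (53, 58, 80 and 65), while *Cd8a* had no interval and heights of 3 to 6. *Eomes* had an interval in both *Parp14*-/- libraries and in neither *Parp14*+/+ library, with heights from 3.50 in *Parp14*+/+ to 7.50 in *Parp14*-/-. *Gzmb* and *Eomes* were higher in both *Parp14*-/- libraries than in both *Parp14*+/+ libraries. Of 5 B cell genes *Cd79a* alone had an interval (38, 36, 34 and 28). Of 5 myeloid genes 2 had a line and summed to between 6 and 12.5, and of 3 NK cell genes *Nkg7* alone had a line, with heights of 8 to 11. The part of these differences in the cytokine ratios was not tested.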

How the data were processed

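RNA Polymerase II phosphoserine 2 ChIP-Seq of 4 Th2 cultures and their Input (5 samples) was analysed. Per the study's methods, the authors mapped reads to mm9 with ELAND, removed duplicates, equalised the number of alignments and called intervals with SICER against Input in windows of 150 bp. The authors deposited, for each library, its intervals and the signal at their summits, and for each gene the average signal over its active regions, which merge the intervals of all 8 libraries in the table. A further 8 columns of per-sample values in it were not used. Table and track signal are heights of overlapping fragments.

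Genes were matched by transcript accession (RefSeq, GRCm38.p6, names only) and by their place in NCBIM37, because labels differed from the accession in 2705 lines without a *Parp14*+/+ interval. The labels of all 8 genes fitted. Coordinates are counted from 1. Ratios were taken of heights as deposited, without a pseudocount. The limits of 1.4 and 0.7, which the study used between the genotypes on peak values of another scale, were applied to all 4 comparisons. The study also accepted some smaller genotype ratios by a minimum peak value on another scale, which was not applied here. For PJ34 it used a range of 0.83 to 1.2, added here as an alternative. The background was the 8551 genes with an interval in at least 1 library. The named genes were the 8 genes, genes sharing their region or holding their highest point, listed cytokines and receptors past a limit with 95% limits on the same side of 1 in a comparison of the genotypes, the 3 genes nearest to each, and markers. The alternatives were the height in the track, scaling to a median ratio of 1, a pseudocount of 1, other ratio limits, a minimum height of 10, and other rules of overlap. Samples were grouped by the genotype and treatment in the labels. Scripts used Python 3.11.15, numpy 2.4.6, pandas 2.3.3, scipy 1.17.1 and matplotlib 3.10.9. The ratio limits were tried on simulated independent Poisson counts only. Real heights are the largest value in a region, and how well the limits hold for such heights was not tested. The genes, lists and alternatives were chosen with earlier results of these data known.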

Additional observations from a re-analysis of the deposited data

Results flagged for a closer look

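At 4 genes the libraries of one group differed in the direction opposite to those of the other, with 1 library for each condition, and none of these differences was tested. The ratio without to with PJ34 at *Il3* was 1.33 in *Parp14*+/+ and 0.750 in *Parp14*-/-, and at *Csf2* it was 1.12 and 0.886. The *Parp14*+/+ to *Parp14*-/- ratio at *Il2* was 1.20 without PJ34 and 0.545 with it, and at *Lif* it was 0.975 and 1.17. All of these ratios hold 1 within their 95% limits for counting error.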

How the results depend on the processing

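Under a limit of 2 or more or 0.5 or less, the number of genes past the limits was 1 in place of 3 in the untreated genotype pair and 1 in place of 3 in the PJ34-treated pair. The ratio of summed heights of *Parp14*-/- to *Parp14*-/- + PJ34 turned from above to below 1 when the libraries were scaled to a median ratio of 1 (0.979) and, in an alternative chosen after seeing the data, when *Il10*, *Il24* and *Il2*, whose highest point lies over or beside a neighbouring gene, were left out (0.940). With the study's range for PJ34 (0.83 to 1.2), also chosen after seeing the data, 5 in place of 1 genes were outside it in *Parp14*+/+ and 4 in place of 0 in *Parp14*-/- cells. All 94 alternative values of single genes stayed within the 95% limits of the reported ratio. That is a weak check, since track heights gave the same ratios and the scaling and pseudocount change little beside such wide limits. With the libraries scaled, *Il3* crossed 1 in the PJ34-treated genotype pair (0.981), *Ifng* lost the limit of 1.4 there (1.25) and *Il3* passed 0.7 in *Parp14*-/- cells (0.682). With a pseudocount of 1 *Ifng* no longer passed 1.4 there. The other 36 summary values stayed within their 95% limits or, for counts, within 1.5 times. Leaving out a library was not possible with 1 per condition. No paired analysis was possible because the groups share fewer than 2 replicate numbers. Heights from the tracks gave no *Il2* ratio in the comparisons with *Parp14*+/+ + PJ34, where no interval was called. At heights of 6 to 28, the 95% limits of *Il2*, *Il21* and *Ifng* held 1 for ratios of up to 1.87.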
